A study of Mus musculus with 10 samples.

Results

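Described here are 38 broad myeloid markers, chosen by symbol from the 36144 genes of the expression table with earlier results of these data known. They comprise leukocyte surface proteins, leukocyte cytoskeletal proteins, integrins, macrophage enzymes and receptors, Toll-like and C-type lectin receptors, Fc gamma receptors and inhibitory receptors. All 38 had a row in the table. They were measured in primary vascular smooth muscle cells of mice from a series on the secreted metalloprotease ADAMTS7 and smooth muscle foam cells in atherosclerosis. The overexpression group combined Adamts7 overexpression with the smooth muscle driver Myh11-Cre-ERT2, and the other group was wild type. Each group has 3 RNA libraries, 1 per mouse, from males of 8 weeks. Cells of both groups were grown from the aortic media after the adventitia had been stripped off, and were used between passages 2 and 7. For the wild-type mice no driver is given, and the labels do not say which mice received tamoxifen, on which this form of Cre depends, so driver, any tamoxifen and overexpression cannot be told apart. All libraries carry the same batch label. The 3 overexpression RNA libraries have WT at the head of their titles, and were placed by their genotype label.

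Myeloid cells, which include monocytes, macrophages and granulocytes, derive from haematopoietic precursors and share a set of surface, motility and lysosomal proteins with other leukocytes. In the wall of a healthy artery, resident macrophages lie mainly in the adventitia, and in atherosclerosis macrophages gather in the intima and take up lipid. Several of these genes are not restricted to leukocytes: Tlr2, Tlr4 and Sirpa are also made by some non-haematopoietic cells.

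Adamts7, the overexpressed gene, stood at 98.7, 79.1 and 75.8 TPM (a relative transcript abundance corrected for length) in overexpression replicates 1, 2 and 3. In wild-type replicates 1, 2 and 3 it stood at 6.08, 6.18 and 8.20 TPM, so the groups did not overlap. A two-sided exact permutation test gave p = 0.1, the smallest value that 3 libraries against 3 allow. Each library had 18802 to 19184 genes above 0 TPM, and mitochondrially encoded genes took 12.0% to 14.3% of its TPM. Read numbers cannot be recovered from TPM, so sequencing depth is unknown. Of the labelled cell type's markers, all 8 on the list of smooth muscle genes were found in every library, and their sum was 2970 to 4510 TPM in overexpression and 2521 to 2663 TPM in wild-type libraries. A list of 9 endothelial genes summed to more in wild-type libraries, 4360 to 4870 TPM, and to 2236 to 3702 TPM in overexpression libraries. The smooth muscle genes alone thus do not describe the make-up of the cultures.

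The myeloid markers were higher in the overexpression cultures for nearly every gene, and the size of the difference depended on the library. Their summed level was 3620, 2815 and 1286 TPM in overexpression replicates 1, 2 and 3, against 648, 832 and 782 TPM in wild-type replicates 1, 2 and 3. These sums made up 0.362%, 0.281% and 0.129% of all TPM in the overexpression libraries and 0.0648% to 0.0832% in the wild-type libraries. The overexpression libraries were thus all above the wild-type ones, with replicate 3 nearest to them. In bulk cultures such as these, fewer cells of a type and less RNA per cell cannot be told apart. Relative to its wild-type mean, the median marker stood at 4.52, 3.77 and 1.67 times in the 3 overexpression libraries, and at 0.876, 1.13 and 0.999 times in the 3 wild-type libraries.

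The mean of 37 of the 38 genes was higher in overexpression than in wild-type cultures, the exception being Tlr4. For 33 genes it was more than 2 times the wild-type mean, where 3.87% of the 13131 genes tested were, and for 9 it was more than 4 times. All 3 overexpression libraries lay above all 3 wild-type libraries for 29 genes, against 14.3% of the genes tested, and all 3 lay below for Tlr4 alone, against 12.9%. Overexpression replicates 1 and 2 exceeded every wild-type library for 35 genes, against 19.5% of the genes tested, the exceptions being Tlr2, Tlr4 and Cbr2. Overexpression replicate 3 was the lowest of its group for 35 genes and fell inside the wild-type range for 6, namely Hcls1, Folr2, Siglec1, Tlr2, Clec7a and Cd86, and below it for Fcgr4 and Tlr4. Replicate 1 was above replicate 2 for 32 genes, whereas replicate 2 was above replicate 1 for Aif1, Folr2, Cbr2, Pf4, Cd14 and Cd86. Since the markers were chosen with earlier results known, the shares of all genes set beside their counts are description and not a test.

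No marker passed the test across all genes. A linear model on log2(TPM + 1) (limma, two-sided) with Benjamini-Hochberg adjustment was run on genes whose mean reached 1 TPM, which 37 of the 38 reached. The count of markers with an adjusted p under 0.05 was 0, and 0.0152% of all genes tested were called higher. At an unadjusted p under 0.05, 30 markers were higher, against 10.6% of the genes tested, and 0 were lower, against 8.94%. The smallest adjusted p among them was 0.128. The median log2 fold change was 1.44 over all 38 genes, from -0.25 to 2.30, and -0.0090 over all genes tested. Itgal, Folr2 and Cd86 had a wild-type mean under 1 TPM and were tested only because of their overexpression values. Fold changes on this scale understate those of such low genes.

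The outcome of the test depended on which libraries entered it and with what weight. Without overexpression replicate 3, 30 of the 37 tested markers had an adjusted p under 0.05 and were higher, against 3.99% of the genes then tested. The 7 others were Hcls1, Cbr2, Tlr2, Tlr4, Clec7a, Fcgr1 and Cd86. Itgal and Folr2, tested only because of their overexpression values, were among the 30. Overexpression replicate 3 was the lowest library of its group for 35 of all the markers. Leaving it out thus raises their fold changes, so the count of 30 is no independent support. With any other single library left out, 0 markers were called higher. With libraries weighted by their agreement with their group, 34 were called higher, against 11.4% of the genes tested, and Cbr2, Tlr2 and Tlr4 were not. The weights were 5.66, 0.278 and 0.487 for overexpression replicates 1, 2 and 3. The largest weight thus went to replicate 1, the highest library for most markers.

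**Figure D1:**
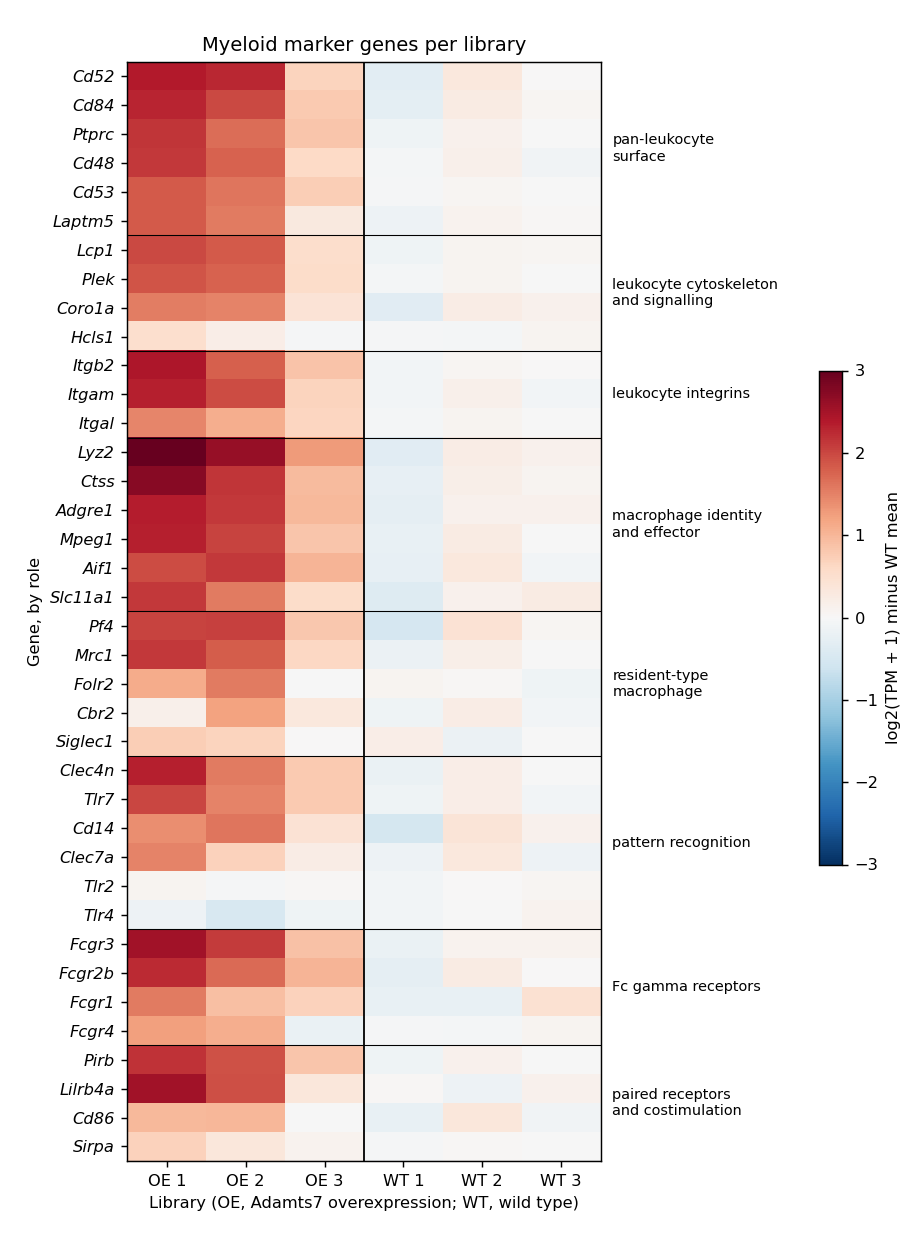
Level of the 38 myeloid marker genes in each library, as log2(TPM + 1) minus the mean of the 3 wild-type (WT) libraries, with genes in rows by role and the 3 overexpression (OE) libraries left of the 3 WT libraries. Red is above and blue below the WT mean. OE 1 and OE 2 are red for nearly every gene, OE 3 is paler, with a median of 0.63 against 1.99 and 1.65, and the rows of Tlr2, Tlr4 and Hcls1 are close to white.

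The 6 genes of broadly expressed leukocyte membrane proteins were higher in each overexpression library than in any wild-type library. Ptprc, which encodes the receptor phosphatase CD45, stood at 20.7, 14.9 and 7.79 TPM in overexpression replicates 1 to 3, against 3.55, 4.46 and 3.91 TPM in wild-type replicates 1 to 3. Laptm5, a lysosomal membrane protein gene of haematopoietic cells, stood at 107, 87.4 and 35.8 TPM in overexpression and 26.2, 31.7 and 30.0 TPM in wild-type libraries. Cd52, a small GPI-anchored glycoprotein gene of leukocytes, stood at 55.3, 51.0 and 16.3 TPM in overexpression and 7.72, 12.5 and 9.86 TPM in wild-type libraries. In none of these did the groups overlap, and the lowest overexpression library was replicate 3 each time. The log2 fold change was 1.77 ± 0.43 (SE) for Cd52, the largest of the 6 genes, and 1.22 ± 0.36 for Laptm5, the smallest (limma adjusted p = 0.131 and 0.154). The tetraspanin gene Cd53 averaged 15.0 ± 5.70 TPM in overexpression and 4.79 ± 0.179 TPM in wild-type cultures (SD, n = 3 each). Of the SLAM family genes, which encode homophilic or paired leukocyte adhesion receptors, Cd84 averaged 18.7 ± 9.15 TPM in overexpression and 4.67 ± 1.06 TPM in wild-type cultures, and Cd48 averaged 10.1 ± 5.20 TPM in overexpression and 2.60 ± 0.361 TPM in wild-type cultures (SD, n = 3 each). The spread between the overexpression libraries exceeded that between the wild-type libraries for all 6 of these genes.

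Among the genes of the leukocyte cytoskeleton, 3 differed by a similar ratio and 1 hardly did. Lcp1, the gene of the actin-bundling protein L-plastin, stood at 79.0, 72.2 and 28.3 TPM in overexpression and 17.5, 20.4 and 20.1 TPM in wild-type libraries. Its log2 fold change was 1.45 ± 0.35 (SE; limma adjusted p = 0.131). Coro1a, which encodes the actin-binding coronin of leukocytes, averaged 16.2 ± 6.44 TPM in overexpression and 6.46 ± 1.45 TPM in wild-type cultures, and Plek, the gene of the protein kinase C substrate pleckstrin, 9.56 ± 4.47 TPM in overexpression and 2.70 ± 0.173 TPM in wild-type cultures (SD, n = 3 each). The groups did not overlap for these 3 genes. Hcls1, which encodes a cortactin-related actin regulator of haematopoietic cells, stood at 45.8, 36.9 and 31.1 TPM in overexpression and 31.2, 31.0 and 34.2 TPM in wild-type libraries. Its overexpression replicate 3 lay inside the wild-type range, and its log2 fold change was 0.22 ± 0.13 (SE; limma adjusted p = 0.417). By group mean, Lcp1 was the most abundant of these 4 genes in overexpression cultures and Hcls1 in wild-type cultures.

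The leukocyte integrins pair alpha chains with the shared beta-2 chain to bind endothelial ligands and complement. Itgb2, the beta-2 chain gene, stood at 42.8, 27.2 and 13.8 TPM in overexpression and 6.75, 7.49 and 7.27 TPM in wild-type libraries, a log2 fold change of 1.69 ± 0.35 (SE; limma adjusted p = 0.131). Itgam, the alpha chain gene of CD11b, stood at 22.7, 17.2 and 6.39 TPM in overexpression and 3.43, 4.19 and 3.42 TPM in wild-type libraries (1.66 ± 0.39; limma adjusted p = 0.131). Itgal, the alpha chain gene of LFA-1, stood at 2.72, 1.84 and 1.08 TPM in overexpression and 0.279, 0.415 and 0.327 TPM in wild-type libraries. Its groups did not overlap either. Its ratio of means, 5.52, was the highest of the 38 genes, but rests on low wild-type values of unknown counting error. Its log2 fold change was 1.06 ± 0.25 (SE; limma adjusted p = 0.131) on the log2(TPM + 1) scale, which compresses low values. Itgal was tested only because of its overexpression values. The gene of the beta-2 chain was more abundant than those of the 2 alpha chains in each of the 6 libraries.

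Genes of macrophage identity and lysosomal function included Lyz2, which had the highest level of the 38 markers in every library. Lyz2, which encodes the lysozyme of macrophages and granulocytes, stood at 1979, 1477 and 588 TPM in overexpression replicates 1 to 3, against 190, 282 and 265 TPM in wild-type replicates 1 to 3. The mean in overexpression cultures was 5.49 times that in wild-type cultures, and the log2 fold change was 2.30 ± 0.41 (SE; limma adjusted p = 0.128). It supplied 54.7%, 52.5% and 45.7% of the summed TPM of the 38 genes in the overexpression libraries, and 29.3% to 33.9% in the wild-type libraries. Without Lyz2 the sum was 1641, 1337 and 698 TPM in overexpression and 458, 550 and 517 TPM in wild-type libraries, so the order of the groups did not rest on it. Ctss, the lysosomal protease cathepsin S, stood at 283, 185 and 80.4 TPM in overexpression and 34.5, 47.1 and 43.6 TPM in wild-type libraries (log2 fold change 1.94 ± 0.41 SE; limma adjusted p = 0.131). For both enzymes overexpression replicate 3 was still above every wild-type library.

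Among the surface and effector genes of macrophages the overexpression libraries stood in the same order, replicate 1 highest and replicate 3 lowest, other than for Aif1. Adgre1, which encodes the adhesion receptor used to define mouse macrophages, stood at 34.0, 28.8 and 12.4 TPM in overexpression and 4.66, 6.44 and 6.48 TPM in wild-type libraries. Mpeg1, the gene of the pore-forming protein perforin-2, stood at 95.9, 77.2 and 33.1 TPM in overexpression and 15.5, 21.8 and 18.0 TPM in wild-type libraries. Slc11a1, which encodes the phagosomal metal transporter NRAMP1, stood at 54.3, 36.6 and 17.7 TPM in overexpression and 8.82, 13.1 and 14.2 TPM in wild-type libraries. It had the smallest log2 fold change of these 6 genes, 1.40 ± 0.37 (SE; limma adjusted p = 0.142). Aif1, which encodes the actin-linked calcium-binding protein IBA1, was highest in overexpression replicate 2, with 25.8, 29.1 and 13.1 TPM in overexpression and 4.84, 7.71 and 5.56 TPM in wild-type libraries. In all 6 genes of this role the groups did not overlap.

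Genes used as markers of resident macrophages were less uniform. Pf4, a chemokine gene of platelets that tissue macrophages also express, stood at 27.4, 28.1 and 11.2 TPM in overexpression and 3.97, 8.49 and 6.28 TPM in wild-type libraries (log2 fold change 1.63 ± 0.37 SE; limma adjusted p = 0.131). Mrc1, the mannose receptor CD206, averaged 17.1 ± 8.28 TPM in overexpression and 4.80 ± 0.671 TPM in wild-type cultures (SD, n = 3 each). Both were above the wild-type range in every overexpression library. Cbr2, a carbonyl reductase gene found in resident macrophages and in lung epithelium, stood at 62.9, 132 and 71.1 TPM in overexpression and 51.5, 66.2 and 53.6 TPM in wild-type libraries. It was highest in overexpression replicate 2, and replicate 1, the library with the highest level of most other markers, lay within its wild-type range. Its log2 fold change was 0.56 ± 0.26 (SE; limma adjusted p = 0.291). Folr2, a folate receptor gene, stood at 2.32, 3.55 and 0.540 TPM in overexpression and 0.634, 0.583 and 0.418 TPM in wild-type libraries. Siglec1, the sialic acid-binding receptor CD169, stood at 1.33, 1.19 and 0.389 TPM in overexpression and 0.589, 0.230 and 0.366 TPM in wild-type libraries, and its mean lay below the limit for testing. For these last 2 genes overexpression replicate 3 lay inside the wild-type range.

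The receptors for microbial patterns split into genes with a higher mean in overexpression, not all without overlap, and a pair with little or opposite difference. Clec4n, which encodes the C-type lectin dectin-2, stood at 92.9, 54.4 and 31.1 TPM in overexpression and 15.5, 20.5 and 17.7 TPM in wild-type libraries (log2 fold change 1.55 ± 0.35 SE; limma adjusted p = 0.131). Tlr7, the endosomal receptor for single-stranded RNA, stood at 25.9, 17.9 and 10.6 TPM in overexpression and 5.12, 6.73 and 5.35 TPM in wild-type libraries. Both had groups that did not overlap. Cd14, the co-receptor that passes lipopolysaccharide to TLR4, averaged 9.24 ± 3.85 TPM in overexpression and 3.54 ± 1.36 TPM in wild-type cultures, and Clec7a, the beta-glucan receptor dectin-1, 9.95 ± 4.92 TPM in overexpression and 4.95 ± 1.19 TPM in wild-type cultures (SD, n = 3 each). For Clec7a overexpression replicate 3, at 5.90 TPM, lay inside the wild-type range of 4.25 to 6.32 TPM.

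Tlr2 and Tlr4 were as abundant as many of the other markers, with little or opposite difference between the groups. Tlr2, the receptor for bacterial lipopeptides, stood at 16.7, 15.4 and 16.2 TPM in overexpression and 15.0, 15.9 and 16.6 TPM in wild-type libraries. The groups overlapped. Its log2 fold change, given here after its values were seen, was 0.03 with a 95% interval of -0.17 to 0.22 (limma adjusted p = 0.893). Tlr4, the lipopolysaccharide receptor, stood at 32.5, 26.0 and 33.1 TPM in overexpression and 34.1, 35.9 and 39.4 TPM in wild-type libraries. All overexpression values lay below all wild-type values, and the log2 fold change was -0.25 ± 0.11 (SE; limma adjusted p = 0.257). In wild-type cultures Tlr4 ranked high among the 38 genes, above Lcp1, Mpeg1 and Clec4n, and in overexpression cultures it averaged 30.5 TPM, below all 3 of them.

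**Figure D2:**
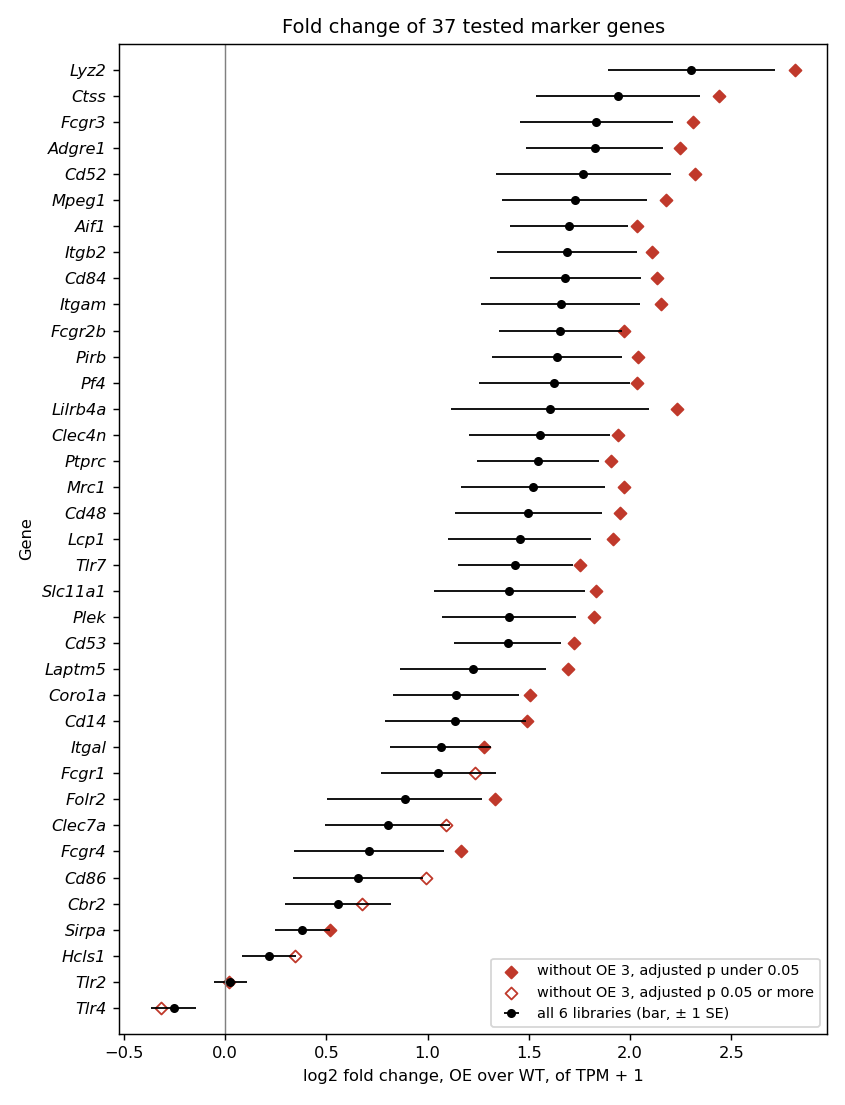
The log2 fold change of the 37 tested markers, overexpression (OE) over wild type (WT), of TPM + 1, sorted by size. Black points with bars of ± 1 SE come from all 6 libraries, and diamonds from the fit without OE 3, filled where the adjusted p is under 0.05. The values run from 2.30 for Lyz2 to -0.25 for Tlr4, and 30 diamonds are filled.

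Fc gamma receptors bind IgG and either activate phagocytes or, in the case of Fcgr2b, inhibit them. Fcgr3, a low-affinity activating receptor gene, stood at 61.6, 46.4 and 19.1 TPM in overexpression and 8.57, 10.7 and 10.8 TPM in wild-type libraries (log2 fold change 1.83 ± 0.38 SE; limma adjusted p = 0.131). Fcgr2b, the inhibitory receptor gene, stood at 12.3, 8.16 and 4.71 TPM in overexpression and 1.34, 2.34 and 1.84 TPM in wild-type libraries (1.65 ± 0.30; limma adjusted p = 0.128). Fcgr1, the high-affinity receptor gene, stood at 6.24, 3.60 and 2.97 TPM in overexpression and 1.10, 1.10 and 2.35 TPM in wild-type libraries. The groups did not overlap for these 3 genes. Fcgr4, an activating receptor gene, stood at 3.90, 3.46 and 0.811 TPM in overexpression and 1.05, 1.00 and 1.21 TPM in wild-type libraries, with overexpression replicate 3 below all of the wild-type libraries (log2 fold change 0.71 ± 0.37 SE; limma adjusted p = 0.334). Other than Fcgr1, these genes lie close together on chromosome 1 in GRCm38.p6, with Fcgr2b from 170960558 to 170976071, Fcgr4 from 171018926 to 171029761 and Fcgr3 from 171051169 to 171065915. Reads shared by such similar genes are divided between them by kallisto, so the split between Fcgr2b, Fcgr3 and Fcgr4 is uncertain.

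The inhibitory receptors and the co-stimulatory ligand completed the set. Lilrb4a, an inhibitory receptor gene of myeloid cells, stood at 80.7, 53.5 and 17.1 TPM in overexpression and 13.6, 11.7 and 14.4 TPM in wild-type libraries (log2 fold change 1.60 ± 0.49 SE; limma adjusted p = 0.160). Pirb, a paired inhibitory receptor gene for MHC class I, stood at 17.7, 14.5 and 6.40 TPM in overexpression and 2.80, 3.53 and 3.14 TPM in wild-type libraries (1.64 ± 0.32; limma adjusted p = 0.128). Sirpa, the receptor gene for the anti-phagocytic ligand CD47, stood at 183, 141 and 121 TPM in overexpression and 109, 115 and 112 TPM in wild-type libraries. The groups did not overlap for these 3 genes. Sirpa was the second most abundant of the 38 in wild-type cultures, and its log2 fold change, 0.38 ± 0.14 (SE; limma adjusted p = 0.205), was among the 4 smallest of the 37 tested. Cd86, a T cell co-stimulatory ligand gene, stood at 2.17, 2.20 and 0.594 TPM in overexpression and 0.376, 1.02 and 0.487 TPM in wild-type libraries, which overlapped. The copies Pira2 and Lyz1, named after their values were seen, share sequence with Pirb and Lyz2, so their division is uncertain. Pira2 stood at 1.75 to 3.04 TPM in overexpression and 0.978 to 1.43 TPM in wild-type libraries, and Lyz1 at 0.285 to 0.985 TPM in overexpression and 0.232 to 0.569 TPM in wild-type libraries.

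To describe how far the markers kept their proportions to each other, each gene was divided by Ptprc in the same library. For 24 of the 37 other genes the ratios of the 2 genotypes overlapped, against 5.55% of all genes tested, and for 21 the mean ratio was within 1.25 times of wild type, against 1.68%. Both shares of all genes are small because Ptprc itself was higher. The contrast with them thus restates that these markers were higher too. Itgb2 stood at 2.06, 1.83 and 1.77 times Ptprc in overexpression and 1.90, 1.68 and 1.86 times in wild-type libraries. Mrc1 stood at 1.16, 1.31 and 1.02 times Ptprc in overexpression and 1.17, 1.23 and 1.22 times in wild-type libraries, and Mpeg1 at 4.25 to 5.19 times in overexpression and 4.36 to 4.89 times in wild-type libraries. These genes thus kept nearly the same level relative to Ptprc in cultures whose Ptprc differed by a ratio of means of 3.64.

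The ratio to Ptprc was higher in all overexpression libraries for Itgal, Lyz2, Fcgr2b and Pirb, 4 of the 37 genes, against 0.0838% of the genes tested. That share is small because Ptprc itself was higher, so it is no measure of how unusual these 4 genes are. Lyz2 stood at 95.4, 99.4 and 75.5 times Ptprc in overexpression and 53.5, 63.4 and 67.7 times in wild-type libraries. The ratio was lower in all overexpression libraries for 9 genes, namely Laptm5, Coro1a, Hcls1, Cbr2, Tlr2, Tlr4, Tlr7, Clec7a and Sirpa. The same held for 94.4% of all genes tested, since Ptprc itself was higher, so a lower ratio did not set these 9 apart. Tlr4 stood at 1.57, 1.75 and 4.25 times Ptprc in overexpression and 9.60, 8.06 and 10.1 times in wild-type libraries, and Sirpa at 8.81, 9.52 and 15.5 times in overexpression and 30.8, 25.8 and 28.6 times in wild-type libraries. For Hcls1 the ratio was 2.21, 2.48 and 3.99 in overexpression and 8.80, 6.95 and 8.74 in wild-type libraries. For Tlr2, Tlr4, Sirpa and Hcls1 overexpression replicate 3, with the lowest Ptprc of its group, lay between the other overexpression libraries and the wild-type libraries. The TPM of these 4 genes differed less between genotypes than that of Ptprc, so this order largely restates that of Ptprc. Because all ratios share Ptprc as their denominator, they are not independent of each other, and no test was made on them.

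**Figure D3:**
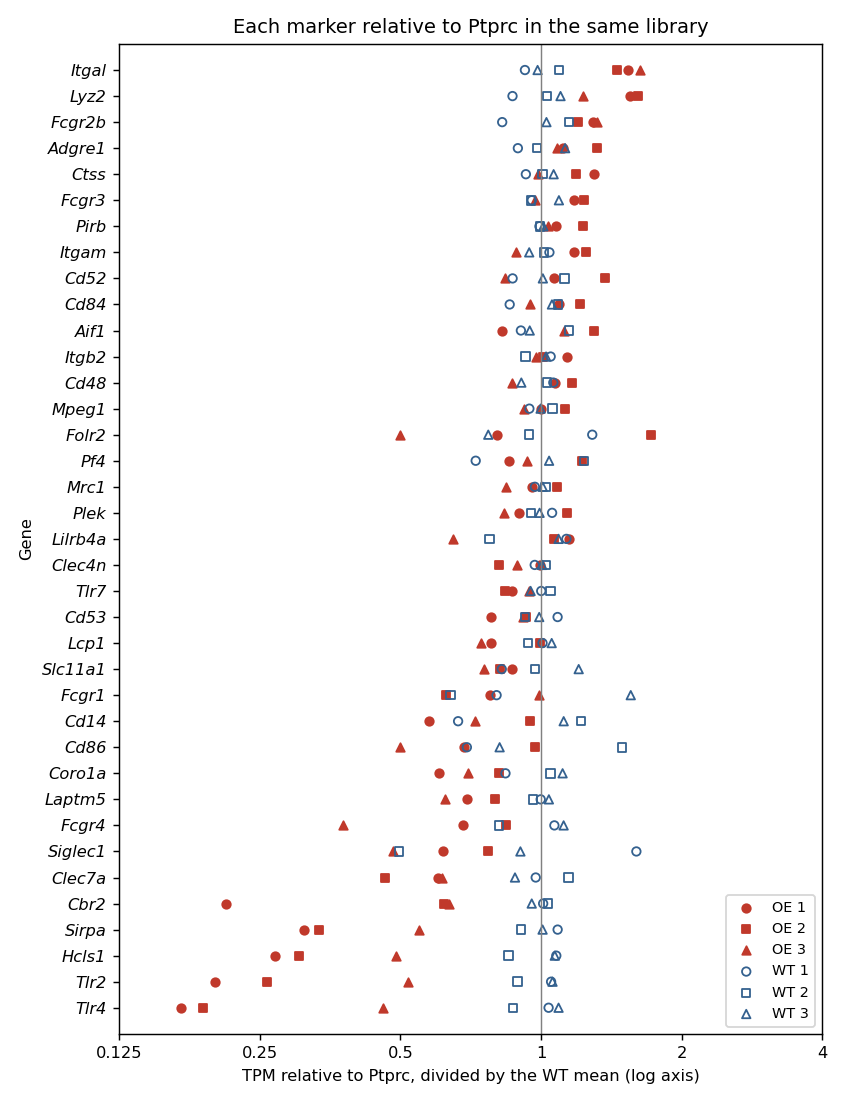
Each marker's TPM divided by that of Ptprc in the same library and then by the wild-type (WT) mean of that ratio, on a log axis; filled red symbols are the 3 overexpression (OE) libraries and open blue symbols the 3 WT libraries. For 24 of 37 genes the 2 genotypes overlap, with OE means from 0.623 for Siglec1 to 1.17 for Adgre1. Itgal, Lyz2, Fcgr2b and Pirb lie to the right of WT in every OE library. To the left lie 9 genes, among them Sirpa, Hcls1, Tlr2, Tlr4, Cbr2 and Clec7a.

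Genes that signal with these receptors were described from lists of pathway partners. Of 16 genes of ITAM and Fc receptor signalling, 15 were tested, 11 had an unadjusted p under 0.05 and were higher, against 10.6% of all genes tested, 0 were lower, against 8.94%, and the median log2 fold change was 1.06. Card9 of this list and Itgax of the integrin partners had wild-type means of 0.687 and 0.787 TPM and were tested only because of their overexpression values. The adaptor genes Fcer1g and Tyrobp, which carry the signalling motif for Fc and other receptors, averaged 124 ± 63.7 and 88.7 ± 43.4 TPM in overexpression and 36.7 ± 4.93 and 22.9 ± 8.74 TPM in wild-type cultures (SD, n = 3 each). Ptpn6, the phosphatase SHP-1 recruited by inhibitory receptors, had a log2 fold change of 1.66 ± 0.28 and the exchange factor gene Vav1 one of 1.26 ± 0.27 (SE; limma adjusted p = 0.128 and 0.131). The summed level of the list was 522, 442 and 219 TPM in overexpression and 145, 180 and 163 TPM in wild-type libraries, in the same order of libraries as the markers.

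Partners of the Toll-like receptors were mixed. Of 21 genes, 18 were tested, 9 had an unadjusted p under 0.05 and were higher, against 10.6% of all genes tested, 1 was lower, against 8.94%, and the median log2 fold change was 0.18. Tlr8, the endosomal receptor beside Tlr7 on the X chromosome, averaged 8.75 ± 4.30 TPM in overexpression and 2.19 ± 0.323 TPM in wild-type cultures (SD, n = 3 each), and Tlr1, the partner of TLR2, had a log2 fold change of 0.87 ± 0.21 (SE; limma adjusted p = 0.131). Unc93b1, which escorts endosomal Toll-like receptors, had 0.45 ± 0.15, and the kinase gene Irak1 -0.04 ± 0.08 (SE; limma adjusted p = 0.186 and 0.845). Ly96, the gene of the TLR4 co-receptor MD-2, was the gene with a lower value; named after its values were seen, it stood at 32.3, 30.5 and 33.6 TPM in overexpression and 38.9, 36.9 and 41.7 TPM in wild-type libraries. Ly96 and Tlr4 were thus both below the wild-type range in every overexpression library, while Cd14, of the same receptor complex, was above it.

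Partners of the leukocyte integrins were also mixed. Of 12 genes, 10 were tested, 4 had an unadjusted p under 0.05 and were higher, against 10.6% of all genes tested, 2 were lower, against 8.94%, and the median log2 fold change was 0.16. The alpha chain gene Itgax (CD11c) averaged 2.93 ± 1.43 TPM in overexpression and 0.787 ± 0.223 TPM in wild-type cultures, and Selplg, the selectin ligand gene of leukocytes, 11.2 ± 5.56 TPM in overexpression and 3.10 ± 0.331 TPM in wild-type cultures (SD, n = 3 each). The most abundant genes of the list are made by many cell types, and Vcam1, an adhesion ligand gene, had a log2 fold change of -0.51 ± 0.24 and the integrin activator gene Tln1 one of 0.19 ± 0.09 (SE; limma adjusted p = 0.294 and 0.295). None of the partner genes of the 3 lists passed the test in all 6 libraries. Without overexpression replicate 3, 20 were called higher, against 3.99% of the genes then tested. Card9 and Itgax, tested only because of their overexpression values, were among them. Replicate 3 had the lowest ITAM and Fc signalling sum of its group, so this count is no independent support.

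Defining markers of other blood cell types were mostly at or near 0. Of 11 neutrophil genes, 4 (S100a9, Camp, Elane and Retnlg) were listed at 0 in all libraries, and the list summed to 1.22 to 1.75 TPM in overexpression and 1.70 to 2.74 TPM in wild-type libraries. Ltf and Csf3r, the most abundant of them over all 6 libraries, were at most 0.534 and 1.11 TPM in overexpression and 0.739 and 0.241 TPM in wild-type libraries, and Ly6g, named after its values were seen, was at most 0.25 TPM in overexpression and 1.11 TPM in wild-type libraries. Of 8 monocyte genes, Chil3 and Ear2 were at 0 throughout, and Ly6c2 and Ccr2, which define classical monocytes, reached at most 0.0675 and 0.0724 TPM in overexpression and 0.0759 and 0.138 TPM in wild-type libraries. The monocyte list summed to 67.2 to 108 TPM in overexpression and 107 to 115 TPM in wild-type libraries, mostly from Ace, an enzyme gene that endothelium also expresses. Treml4 and Plac8, the other monocyte genes tested, had log2 fold changes of 1.14 ± 0.30 and 1.19 ± 0.30, and Ace one of -0.48 ± 0.19 (SE; limma adjusted p = 0.140, 0.133 and 0.227).

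Lymphoid, dendritic, mast cell and platelet genes were likewise low or shared with other cell types. Of 9 T cell genes Cd3e and Cd2 were at 0, and the sum of 10.96 to 12.50 TPM in overexpression and 14.04 to 17.54 TPM in wild-type libraries came mainly from Lck, with 7.73 TPM in overexpression and 11.3 TPM in wild-type cultures, and Cd247. Of 7 NK cell genes 4 were at 0, and the sum, with Eomes as its largest part and Gzmb seen in a single library, was at most 0.0845 TPM in overexpression and 0.182 TPM in wild-type libraries. The list of 7 B cell genes, led by Cd22 and Cd79a, summed to 0.629 to 2.16 TPM in overexpression and 0.688 to 1.19 TPM in wild-type libraries. Of 8 dendritic cell genes Cd209a was at 0, and the sum of 369 to 567 TPM in overexpression and 579 to 613 TPM in wild-type libraries was nearly all Cd24a, which many cell types express, with Zbtb46 next. Of 8 mast cell genes Cpa3, Tpsab1 and Fcer1a were at 0 and Tpsb2 was at most 0.0448 TPM in overexpression and 0.156 TPM in wild-type libraries, so that the sum of 10.5 to 18.9 TPM in overexpression and 13.8 to 15.4 TPM in wild-type libraries was nearly all Kit. The 7 platelet genes, led by Gp1ba and Itga2b, summed to 4.97 to 7.69 TPM in overexpression and 6.54 to 7.27 TPM in wild-type libraries. By its sum, none of these lists was higher in every overexpression library, in contrast to the myeloid markers. Several of the sums rest on genes shared with other cell types, and single genes could differ from them. Treml4 and Plac8 of the monocyte list were above the wild-type range in every overexpression library.

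Markers of cells of the vessel wall differed between the same libraries, and their part in the result was not tested. All 9 endothelial genes were tested, 7 had an unadjusted p under 0.05 and were lower, against 8.94% of all genes tested, and their median log2 fold change was -0.50. Their sum was 3047, 2236 and 3702 TPM in overexpression replicates 1 to 3 and 4704, 4360 and 4870 TPM in wild-type replicates 1 to 3, with Emcn and Cdh5 at 1153 and 612 TPM in overexpression and 2046 and 919 TPM in wild-type cultures. Of the 8 smooth muscle genes, 7 had an unadjusted p under 0.05 and were higher, against 10.6% of all genes tested, with a median of 0.60. Acta2 and Tagln averaged 1764 and 1064 TPM in overexpression and 1249 and 839 TPM in wild-type cultures, and Myl9 and Lmod1 had log2 fold changes of 0.72 ± 0.17 and 0.73 ± 0.18 (SE; limma adjusted p = 0.131 and 0.133). Of 7 fibroblast genes, 5 were tested, 2 of them, Col1a1 and Gsn, had an unadjusted p under 0.05 and were higher, against 10.6% of all genes tested, and 1 was lower, against 8.94%. The fibroblast sum was 752 to 1028 TPM in overexpression and 565 to 634 TPM in wild-type libraries, mainly from Gsn and Col1a1. Dcn, the lower gene, named after its values were seen, averaged 19.7 TPM in overexpression and 31.1 TPM in wild-type cultures. The fibroblast sum thus does not describe each gene of its list. Overexpression replicate 2 had the highest smooth muscle and fibroblast sums and the lowest endothelial sum, whereas replicate 1 had the highest myeloid sum, so the lists did not follow 1 order of libraries.

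**Figure D4:**
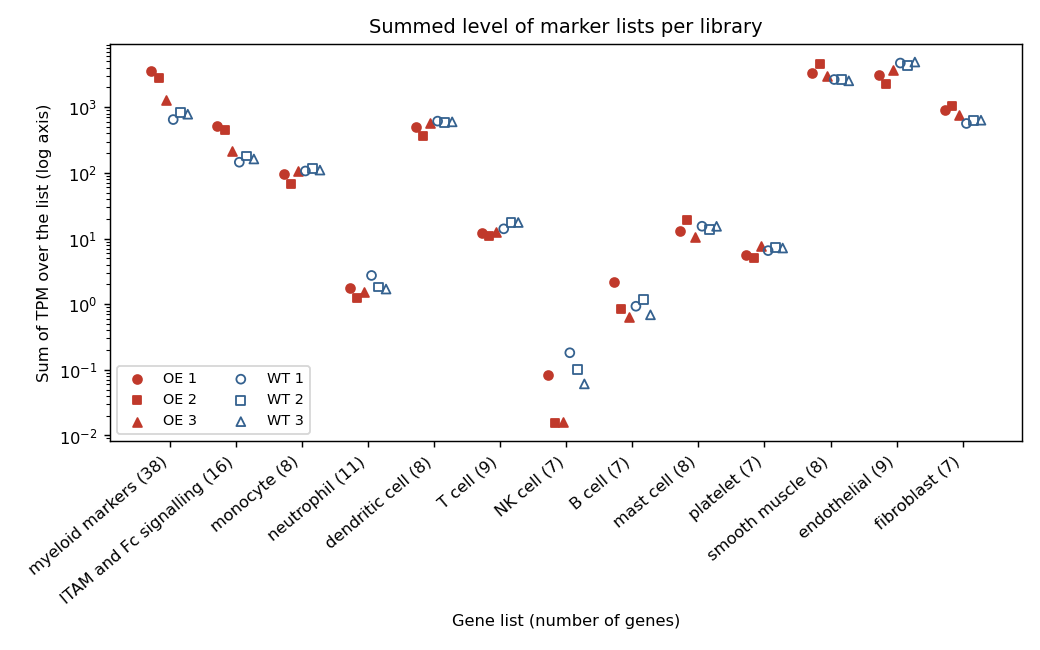
Sum of TPM over each gene list in each library, on a log axis, with the number of genes listed in brackets; filled red symbols are the 3 overexpression (OE) libraries, left of the 3 open blue wild-type (WT) libraries. The myeloid markers, at 1286 to 3620 TPM in OE and 648 to 832 TPM in WT libraries, are higher in every OE library. So are the lists of ITAM and Fc signalling, smooth muscle and fibroblast genes. The lists of neutrophil, NK and B cell genes stay under 3 TPM.

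Many myeloid genes are read from promoters without a strong TATA box that bind the haematopoietic ETS factor PU.1 (Spi1), whose core motif contains GAGGAA. The deposited data hold no binding of PU.1 at single genes, so the promoters were read only for the letters of the motif. RefSeq promoters of GRCm38.p6 were at hand for 26 of the 38 genes, each from 250 bases before to 50 after the transcript start, 300 bases in all. GAGGAA or its reverse complement TTCCTC occurred in those of 17 of the 26 genes, 65.4%, against 31.3% of the 27025 genes in the promoter table. The longer GAGGAAGT, which contains it, was found on either strand in 5 genes (19.2%), Cd53, Ctss, Fcgr4, Pf4 and Pirb, against 3.69% of all genes. Among other motifs searched on both strands, the C/EBP-type TTGCNNAA was found in 11.5% of the marker genes and 12.2% of all genes, and the AP-1-type TGANTCA in 11.5% of the marker genes and 8.97% of all genes. The interferon-response type, GAAA followed by any 2 bases and again GAAA, was found in 11.5% of the marker genes and 3.99% of all genes, and TATAAA in 19.2% of the marker genes and 15.7% of all genes. The median GC content of the windows was 46.2% for the 32 windows of the marker genes and 52.7% over all 32851 windows, so the windows differ in base composition as well.

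The 250 bases before the start are shown for 5 genes, picked after their values were seen: Itgam, Ctss and Pirb, which hold the core motif and differed between genotypes by ratios of means of 4.19, 4.38 and 4.08, and Lyz2 and Tlr2, which lack it in this window and had ratios of 5.49 and 1.02. Letters in capitals mark GAGGAA or TTCCTC, and each sequence reads 5′ to 3′ on the strand of its gene.
Itgam, chr7:128062390-128062639 (+ strand): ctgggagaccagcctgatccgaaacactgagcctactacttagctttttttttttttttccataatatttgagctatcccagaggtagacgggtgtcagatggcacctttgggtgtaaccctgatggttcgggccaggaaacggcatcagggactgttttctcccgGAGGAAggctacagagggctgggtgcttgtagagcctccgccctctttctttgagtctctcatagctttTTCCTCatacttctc
Ctss, chr3:95526536-95526785 (+ strand): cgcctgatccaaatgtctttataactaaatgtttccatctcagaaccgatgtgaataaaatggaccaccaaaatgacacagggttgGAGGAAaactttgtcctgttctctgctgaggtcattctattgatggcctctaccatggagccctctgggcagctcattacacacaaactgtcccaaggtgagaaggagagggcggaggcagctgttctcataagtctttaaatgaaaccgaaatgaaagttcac
Pirb, chr7:3720383-3720632 (- strand): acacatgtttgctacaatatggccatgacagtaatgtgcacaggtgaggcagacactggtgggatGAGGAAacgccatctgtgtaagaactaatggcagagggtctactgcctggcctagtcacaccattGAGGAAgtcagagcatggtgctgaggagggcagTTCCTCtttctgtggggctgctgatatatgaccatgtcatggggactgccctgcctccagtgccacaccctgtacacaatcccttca
Lyz2, chr10:117282273-117282522 (- strand): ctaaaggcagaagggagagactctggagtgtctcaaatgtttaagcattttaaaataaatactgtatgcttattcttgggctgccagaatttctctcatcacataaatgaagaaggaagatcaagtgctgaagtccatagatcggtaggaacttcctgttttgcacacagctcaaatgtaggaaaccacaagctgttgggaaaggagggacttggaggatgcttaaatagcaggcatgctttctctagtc
Tlr2, chr3:83841609-83841858 (- strand): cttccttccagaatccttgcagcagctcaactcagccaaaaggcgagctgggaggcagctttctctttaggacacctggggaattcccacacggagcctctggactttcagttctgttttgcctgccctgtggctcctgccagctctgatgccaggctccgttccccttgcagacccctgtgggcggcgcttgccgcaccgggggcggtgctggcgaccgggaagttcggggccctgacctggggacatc
In these 250 bases Itgam holds the core at positions -84 and -15 from its start, Ctss at -164 and Pirb at -185, -120 and -87. The 300-base window that was counted holds 1 more match in Itgam, at position 33, and 1 more in Ctss, at position 1, both past the stretch shown. The match to GAGGAAGT counted for Ctss, on the other strand, spans the start and is not wholly in the stretch shown. Lyz2, with the highest level of the 38 genes, and Tlr2, with a log2 fold change near 0, both lack these letters in the window, as do Cd48, Coro1a, Fcgr2b, Folr2, Hcls1, Lcp1 and Mpeg1. A match is a string of letters and no evidence of a bound site.

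For the factors that read this motif, footprints of the ATAC-seq libraries, merged over 2 mice of each genotype, were at hand. In the authors' deposited table the mean footprint score of the Spi1 motif was 0.213 in overexpression and 0.206 in wild type, and of 66368 searched sites 9.25% were called bound in overexpression and 8.57% in wild type. The authors' deposited table gave the related SPIB motif 0.221 in overexpression and 0.214 in wild type. For SPIC, a factor of red pulp macrophages, the mean scores in the authors' deposited table were 0.206 in overexpression and 0.189 in wild type. Each of the 3 motifs thus had the higher score in overexpression, by amounts for which the merged values give no spread. The 3 motifs are related, so they are not 3 separate observations. They were not set against all other motifs, so whether the higher score is particular to them was not tested.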

How the data were processed

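RNA from 3 overexpression and 3 wild-type cultures was compared, grouped by the genotype label and numbered by mouse. The authors deposited a kallisto table of TPM, per the labels, in which every library sums to 1000000. The build was mm10 per the submitters' processing notes. Version, annotation and read numbers are not given in the sources used. Since TPM are shares of a total, a large gain in some genes reduces the values of others. For ATAC-seq the authors deposited, per motif, a mean footprint score per genotype, a count of searched and of bound sites, and a change between genotypes, which was left out.

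The test used limma 3.58.1 (lmFit, eBayes with trend) in R 4.3.3 on log2(TPM + 1) of 13131 genes averaging at least 1 TPM, two-sided, with Benjamini-Hochberg adjustment over all of them and a threshold of 0.05; it was tested on simulated data. Ratios, sums and motif searches used Python 3.11.15. Positions and promoters came from RefSeq tables of GRCm38.p6. The markers and lists were chosen with earlier results of these data known. SE and p are given, in each role, for the 2 most abundant genes and for the largest and smallest fold change, and in each other list for the 2 most abundant genes and the 2 of smallest p. Alternatives were a pseudocount of 0.1, other filters, 2 scalings, library weights, a replicate block and leaving out each library.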

Additional observations from a re-analysis of the deposited data

How the results depend on the processing

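Wherever they were tested, the 37 markers kept their direction under every alternative except for Tlr2, whose log2 fold change was -0.012 without wild-type replicate 1. The count of markers called higher, 0 in all 6 libraries, was 34 with library quality weights and 0 to 30 when 1 library was left out, 30 being without overexpression replicate 3. The count of partner genes called higher, 0 in all 6 libraries, was 27 with the weights and 0 to 20 with 1 library left out. Over all genes, 2 were called, 1 with a mean of at least 5 TPM, 2728 with the weights and 1 to 828 with 1 library left out. The weights were 5.66, 0.278 and 0.487 for overexpression replicates 1 to 3 and 0.664, 1.54 and 1.28 for wild-type replicates 1 to 3, so the weighted fit leaned on overexpression replicate 1. The cause of these shifts was not tested. The median log2 fold change of the markers ran from 1.18 without overexpression replicate 1 to 1.91 without overexpression replicate 3.

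Same-numbered mice did not deviate together, with correlations of -0.022, 0.058 and 0.018, so the numbers were not treated as pairs. With a replicate block 1 gene was called over all genes, and 32 markers had an unadjusted p under 0.05 and were higher, against 30 without the block. Depth cannot be read from TPM, so no counting error could be given for low genes such as Itgal, Folr2, Siglec1 and Cd86.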
